A study of Mus musculus with 16 samples.

Results

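The genes described here are 10 markers of the endothelium, the cell layer that lines blood vessels, in kidney and liver RNA-seq libraries of aged mice: *Pecam1*, *Cdh5*, *Kdr*, *Flt1*, *Tek*, *Emcn*, *Ehd3*, *Plvap*, *Stab2* and *Lyve1*. They were chosen by their known use as general, glomerular or liver sinusoidal endothelial markers, with earlier results of these data in view, and they are 10 of the 24984 genes in the count tables. Because of that choice, their values are given as a description and no test on them is used as support. The libraries came from female C57BL/6 mice of the wild type that received the vector AAV8, an adeno-associated virus, by intravenous injection. The vector expressed a short hairpin RNA against *Fos* (shFos, labelled shFOS) or a non-targeting hairpin (NT, labelled shNT), so that all groups carried virus and no uninjected group entered these comparisons. The labels give an age of 24 months, whereas the methods place the injection at that age and the collection months later. Each of the 4 groups held 4 libraries of whole tissue, 16 in all. The vector was delivered through the blood, and the sources used here do not say which cells of the kidney or liver took it up.

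Endothelial cells differ between vessel beds. *Pecam1* (PECAM-1, an adhesion molecule) and *Cdh5* (VE-cadherin) sit at the junctions between endothelial cells of most vessels. *Kdr* (VEGFR2) and *Flt1* (VEGFR1) encode receptors for vascular endothelial growth factor, and *Tek* (Tie2) encodes the receptor for the angiopoietins, which keep vessels quiescent or loosen them. *Emcn* (endomucin) is a surface sialomucin, *Ehd3* encodes a membrane-trafficking protein used as a marker of the glomerular endothelium, and *Plvap* encodes the protein of the diaphragms that span endothelial fenestrae. *Stab2* (stabilin-2) and *Lyve1* encode hyaluronan receptors, the first known from liver sinusoids and the second from sinusoids and lymphatic vessels. FOS, the hairpin's target, is a subunit of AP-1, a transcription factor that binds the letters TGANTCA.

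The treatment was aimed at a transcription factor, and the 3 receptor genes are shown with the sequence upstream of their start sites. These genes were chosen because, on the scaled counts used below, each was higher in every shFos kidney than in every NT kidney. For *Flt1* and *Tek* this held only with that scaling. The sequences come from the RefSeq promoter table (GRCm38.p6), in which 6 of the 10 genes had an entry, and run 5′ to 3′ on the strand of the gene. *Kdr* is read from chr5:75978459-75978705 (minus strand), *Flt1* from chr5:147726012-147726261 (minus strand) and *Tek* from chr4:94739039-94739288 (plus strand). Capitals mark matches to motifs searched on both strands in the 250 bases before the RefSeq start site.
Kdr: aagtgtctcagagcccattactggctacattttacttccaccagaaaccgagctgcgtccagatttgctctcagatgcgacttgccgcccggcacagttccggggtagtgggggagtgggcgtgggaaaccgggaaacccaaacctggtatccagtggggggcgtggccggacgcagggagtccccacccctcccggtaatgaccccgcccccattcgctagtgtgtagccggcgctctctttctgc
Flt1: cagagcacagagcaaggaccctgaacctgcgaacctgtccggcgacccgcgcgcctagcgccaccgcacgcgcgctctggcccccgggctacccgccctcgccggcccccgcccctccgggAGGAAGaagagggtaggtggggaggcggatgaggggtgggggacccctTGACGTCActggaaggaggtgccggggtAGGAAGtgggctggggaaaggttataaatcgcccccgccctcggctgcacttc
Tek: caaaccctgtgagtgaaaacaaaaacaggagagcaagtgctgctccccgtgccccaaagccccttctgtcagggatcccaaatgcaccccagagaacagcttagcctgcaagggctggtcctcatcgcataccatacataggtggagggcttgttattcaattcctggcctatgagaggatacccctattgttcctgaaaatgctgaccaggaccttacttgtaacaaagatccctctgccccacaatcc

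The AP-1 letters TGANTCA matched none of the 6 upstream windows and 6.75% of 32851 mouse promoters. The letters TGACGTCA, a cyclic AMP response element, matched the window of *Flt1* at position -81 from the start site and 1.55% of promoters. The letters AGGAAG, the core of sites for ETS factors, matched *Flt1* at -129 and -53, *Emcn* at -174 and -93 and *Stab2* once, against 29.5% of promoters with at least 1 match. The RefSeq start of *Stab2* lies 83 bases inside the GENCODE gene, and the 167 bases before both start sites held no match. *Kdr*, *Tek* and *Ehd3* held none of these motifs in this window, although the RefSeq start of *Ehd3* lies 707 bases inside the GENCODE gene, so that its whole window of 250 bases is within the annotated gene. A match is a string of letters only and no binding was measured.

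Between 14194543 and 15534665 reads per kidney library and between 16652150 and 18300277 reads per liver library were counted on genes. A gene with a count of 0 could still have up to 3 counts, or between 0.156 and 0.2302 CPM (read counts put on a common scale within each tissue by the TMM method), which allows for counting error alone. Within each group, every pair of libraries differed by more than sampling noise (chi-square over genes at least 7.17 per degree of freedom). *Fos* lay between 4.23 and 6.7 CPM in NT kidneys and between 2.302 and 4.121 CPM in shFos kidneys, with no overlap, as held in this direction for 8.04% of all genes. Its log2 fold change there was -0.73 (SE 0.25), with adjusted p-values of 0.0947 by edgeR and 0.0463 by DESeq2. In the liver *Fos* lay between 1.121 and 3.693 CPM in the NT group and between 1.375 and 2.757 CPM in the shFos group, and the groups overlapped. The log2 fold change there was -0.47 (SE 0.38, edgeR adjusted p = 0.775). The tissue labels were matched by 5 hepatocyte markers, which summed to at least 42190 CPM in every liver and at most 669.8 CPM in every kidney, and by 5 proximal tubule markers, which summed to at least 3559 CPM in every kidney and at most 1.777 CPM in every liver. In the kidney shFos replicate 1 and NT replicate 4 stood apart, and in the liver NT replicate 4. For kidney shFos replicate 1, 3 podocyte markers (*Nphs1*, *Wt1* and *Synpo*) summed to 107 CPM there and to 193.1 to 206.5 CPM in the other shFos kidneys. By chi-square it did not stand apart. Against its group it had 27.35 to 58.55 per degree of freedom, where shFos replicate 3 had 30.63 to 58.55. Kidney NT replicate 4 had a chi-square of 63.6 to 67.7 per degree of freedom against the other NT kidneys, which had 7.17 to 13.0 among themselves, and liver NT replicate 4 had 333.7 to 430.7, where the other NT livers had 40.7 to 60.2. The hepatocyte sum was 42190 CPM in liver NT replicate 4 and 117100 to 186400 CPM in the other NT livers. Larger shifts of single markers without these libraries are given beside their values. The labels do not say whether each library came from a separate animal, and p-values measure the spread between these libraries.

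All 10 genes were detected in all 16 libraries, with 12 to 4960 reads per gene and library. Together they took 645.6 to 757.1 CPM in NT kidneys (median 729.1), 721.9 to 898.9 CPM in shFos kidneys (median 817.6), 225.7 to 292.8 CPM in NT livers (median 232.8) and 255.8 to 300.6 CPM in shFos livers (median 279.9). In both tissues the shFos range began above the lowest NT library and the ranges overlapped. In whole tissue, fewer endothelial cells and less RNA of a gene in each of them cannot be told apart.

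**Figure D1:**
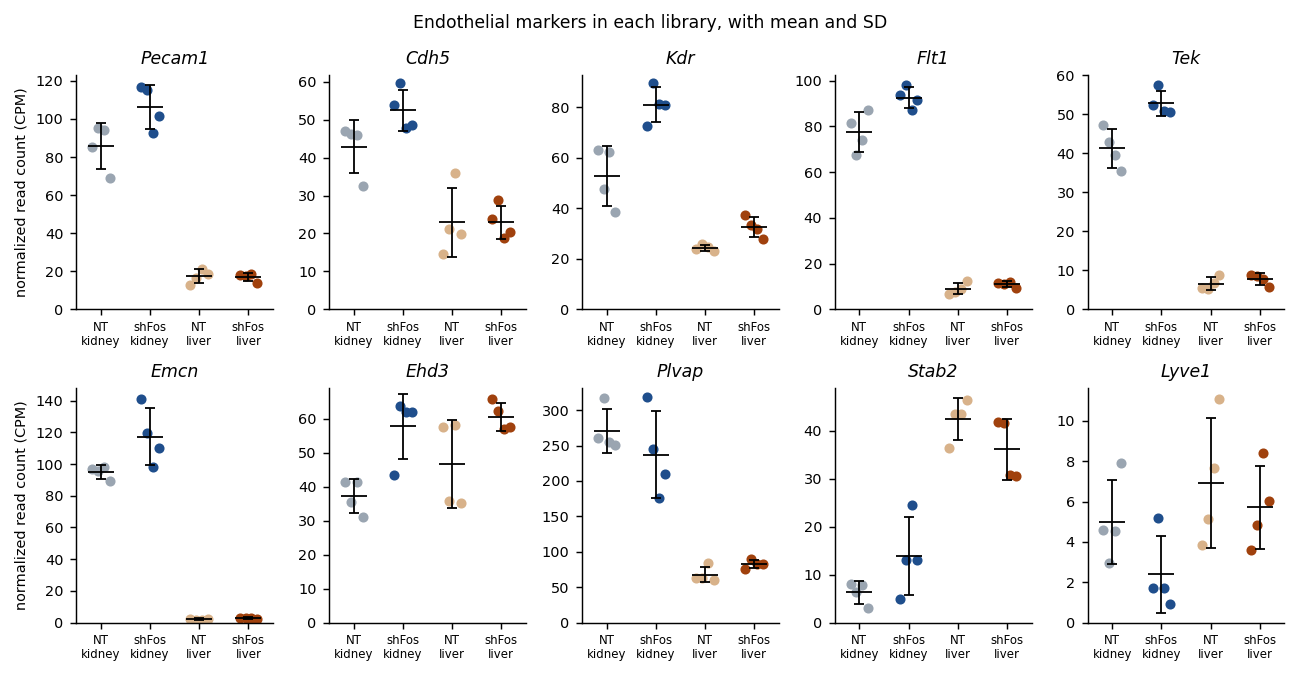
Normalized read count (CPM, linear axis from 0, scaled within each tissue) of the 10 endothelial markers in each of the 16 libraries. Points are libraries in the order of their replicate numbers, and the bar and whiskers are the mean and SD of 4 libraries. *Kdr* is higher in every shFos library than in every NT library of its tissue, *Emcn* is near 0 in the liver (2.138 CPM on average in the NT group), and *Ehd3* in shFos replicate 1 (43.54 CPM) lies just above the NT kidneys.

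To compare genes with one another, CPM were divided by the length of the longest annotated transcript in kilobases (GENCODE M21), which ran from 1987 bases for *Plvap* to 8228 bases for *Stab2*. In NT kidneys, *Plvap* was the most abundant of the 10 at 136.3 ± 15.6 CPM per kb (SD, n = 4). It was followed by *Emcn* at 36.7 ± 1.60 and *Pecam1* at 25.0 ± 3.51 CPM per kb (SD, n = 4), and these steps were larger than the SDs. *Flt1* (11.3 ± 1.25), *Cdh5* (10.7 ± 1.73), *Ehd3* (10.2 ± 1.37), *Kdr* (8.94 ± 2.01) and *Tek* (8.86 ± 1.07 CPM per kb, all SD, n = 4) followed, and neighbours in this order did not differ beyond their SDs. *Lyve1* (1.73 ± 0.721) and *Stab2* (0.763 ± 0.282 CPM per kb, SD, n = 4) came last, and their SDs overlapped.

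In NT livers *Plvap* again had the highest level, 34.1 ± 5.63 CPM per kb (SD, n = 4), and *Ehd3*, a marker named for the glomerulus, was second at 12.8 ± 3.52 CPM per kb (SD, n = 4). *Cdh5* (5.74 ± 2.29), *Stab2* (5.16 ± 0.524), *Pecam1* (5.01 ± 1.07) and *Kdr* (4.11 ± 0.207 CPM per kb, all SD, n = 4) came next, with neighbours within their SDs. *Lyve1* was at 2.39 ± 1.11, *Tek* at 1.40 ± 0.356, *Flt1* at 1.30 ± 0.357 and *Emcn* at 0.826 ± 0.161 CPM per kb (SD, n = 4), and neighbours among these 4 did not differ beyond their SDs. *Emcn* was thus second in the kidney and last in the liver, *Stab2* was last in the kidney and in the middle of the order in the liver, and *Ehd3* was in the middle in the kidney and second in the liver.

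**Figure D2:**
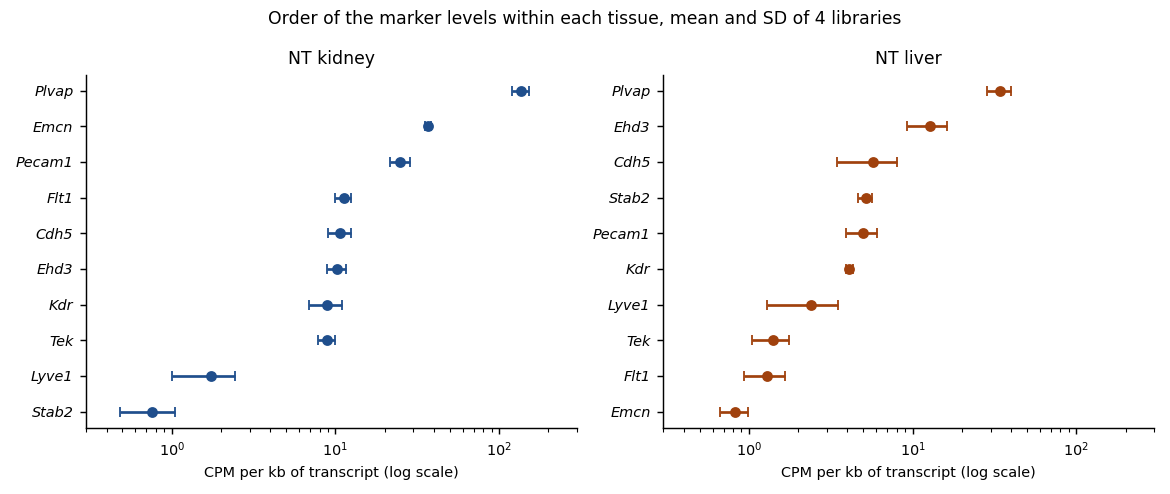
Level of each marker in the NT group of each tissue, as CPM per kb of transcript on a log axis, ordered within each panel; points and bars are the mean and SD of 4 libraries. *Plvap* leads both panels (136.3 CPM per kb in the kidney and 34.1 in the liver), while *Emcn* is second in the kidney and last in the liver, and *Stab2* is last in the kidney.

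The next comparison asked in which tissue each marker was higher, with NT kidneys set against NT livers in 1 edgeR fit of all 16 libraries. The result depended on the scale: the normalization factors were 1.32 to 1.48 in kidneys and 0.626 to 0.784 in livers, and the median log2 difference of all 15421 genes tested was 0.05 with TMM and 1.10 with library size alone. On the TMM scale *Emcn* was higher in the kidney by 4.48 (log2, SE 0.17), *Flt1* by 2.13 (SE 0.16), *Tek* by 1.66 (SE 0.17), *Pecam1* by 1.32 (SE 0.15) and *Plvap* by 1.01 (SE 0.17). *Stab2* had a log2 difference of -3.75 (SE 0.38), *Lyve1* of -1.46 (SE 0.47) and *Ehd3* of -1.32 (SE 0.17), all higher in the liver. These 8 passed an adjusted p of 0.05 and a 2-fold difference, 5 toward the kidney and 3 toward the liver, although *Plvap* stood at the 2-fold limit and missed it without replicate 1, 2 or 4, and *Lyve1* was not called without replicate 3. Of all genes tested, 40.4% passed, 25.0% toward the kidney and 15.3% toward the liver, and nothing is read from the markers' count because they were chosen as markers of these beds.

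*Kdr* and *Cdh5* did not separate the tissues on the TMM scale, with log2 differences of 0.13 (SE 0.14) and -0.09 (SE 0.22). The sign for *Cdh5* turned with the scale, to 0.07 with upper-quartile normalization and 0.92 with library size alone, where the all-gene medians were 0.21 and 1.10. With library size alone the tissue differences of *Ehd3* and *Lyve1* shrank to -0.27 and -0.45, and *Kdr* then stood at 1.18. *Emcn* stayed highest toward the kidney (5.53) and *Stab2* toward the liver (-2.71).

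A further 77 genes, called further endothelial genes here, came from 7 lists compiled with earlier results of these data known. The lists also hold ligands such as *Vegfa* and *Angpt1*, and whole tissue does not show which cells expressed a gene. Of these 77 genes, 33 were higher in NT kidneys and 16 in NT livers by the same rule, beside 25.0% and 15.3% of all genes. Their median log2 difference was 0.76 against 0.05 for all genes. The split depended on the scale: by the adjusted p alone the counts toward kidney and liver were 42 and 23 with TMM, and 58 and 13 with library size alone. Of 13 genes known from liver sinusoidal endothelium, 9 were called toward the liver and 1, *Wnt9b* (a Wnt ligand, log2 difference 1.43, SE 0.49, edgeR adjusted p = 0.0175), toward the kidney. *Clec4g*, a sinusoidal lectin, was at 45.5 CPM in NT livers and at 0 to 0.131 CPM in NT kidneys. *Oit3* (log2 difference -6.16) and *Gata4* (-7.12), a transcription factor of sinusoidal endothelium, were called in the same direction. Of 6 glomerular genes 3 were called toward the kidney, led by *Plat* (tissue plasminogen activator, log2 difference 5.17, SE 0.22, edgeR adjusted p = 1.11e-11), and 2 toward the liver, *Nostrin* (an eNOS trafficking protein, log2 difference -2.92, SE 0.19, edgeR adjusted p = 1.35e-09) and *Tbx3* (-2.71). *Nostrin*, like *Ehd3*, was thus higher in the liver on the TMM scale although it was listed for the glomerulus.

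The main question of the design was how the shFos hairpin altered expression in aged tissue, and each tissue was tested alone. In the kidney, 8 of the 10 markers were higher in the shFos group and 2 were lower, with a median log2 fold change of 0.31 against 0.00 for all 14892 genes tested. On the TMM scale all 4 shFos kidneys lay above all 4 NT kidneys for 5 markers (*Cdh5*, *Kdr*, *Flt1*, *Tek* and *Ehd3*), and none lay below. The TMM factors were 1.029 to 1.039 in NT kidneys and 0.9182 to 1.04 in shFos kidneys. By reads over library size alone, the groups of *Cdh5*, *Flt1* and *Tek* overlapped. Over all genes, 9.16% had shFos above NT without overlap and 8.04% had it below. No marker and no other gene passed the quasi-likelihood test of edgeR, with p-values adjusted by Benjamini-Hochberg (called 0%), while 7 markers and 4762 genes had an unadjusted p under 0.05. DESeq2 called 3 markers higher (*Kdr*, *Tek* and *Ehd3*) and 17.0% of all genes, 9.78% higher and 7.20% lower. These counts describe genes picked with such values in view and nothing is read from them.

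**Figure D3:**
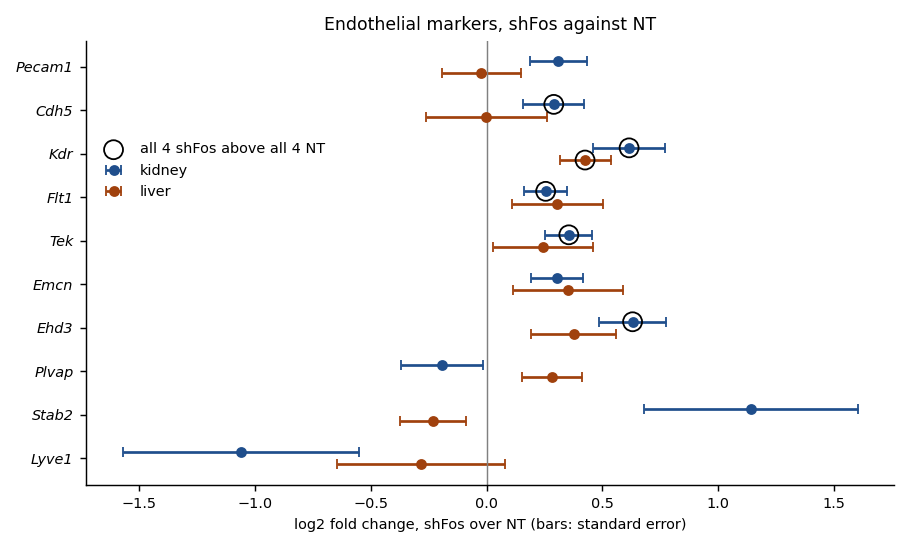
Log2 fold change of shFos over NT for the 10 markers in the kidney (blue) and liver (brown), with standard errors from edgeR; black circles mark genes whose 4 shFos libraries all lie above the 4 NT libraries. In the kidney 8 points lie to the right of 0, with 5 circles, and in the liver 6 points lie to the right, with 1 circle at *Kdr* (0.43).

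Of the receptors, *Kdr* (chr5:75932827-75978458) was at 63.0, 47.8, 62.5 and 38.6 CPM in NT kidneys 1 to 4 and at 72.7, 89.7, 81.2 and 80.8 CPM in shFos kidneys 1 to 4. The groups did not overlap, and the log2 fold change was 0.62 (SE 0.16). *Flt1* (chr5:147561604-147726011) was at 81.7, 67.7, 73.9 and 87.4 CPM in NT kidneys and at 93.8, 98.2, 87.4 and 91.4 CPM in shFos kidneys. Its groups touched within 0.01 CPM, at 87.39 in NT replicate 4 and 87.4 in shFos replicate 3. The lack of overlap thus rests on that pair and on the TMM scale. Its log2 fold change was 0.26 (SE 0.09). *Tek* (chr4:94739289-94874976) was at 47.2, 42.9, 39.5 and 35.4 CPM in NT kidneys and at 52.2, 57.5, 50.9 and 50.4 CPM in shFos kidneys. Its log2 fold change was 0.36 (SE 0.10), and the groups did not overlap on the TMM scale. Without it they overlapped: NT replicate 1 had 718 of 14709523 reads and shFos replicate 3 had 712 of 14811360. Over all alternatives, these log2 fold changes ran from 0.49 to 0.71 for *Kdr*, from 0.16 to 0.32 for *Flt1* and from 0.26 to 0.43 for *Tek*.

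The junction genes were also higher on average. *Cdh5* (chr8:104101625-104144511) was at 46.9, 46.2, 46.0 and 32.6 CPM in NT kidneys and at 53.8, 59.6, 47.7 and 48.6 CPM in shFos kidneys. NT replicate 4 was far below its group, the other NT kidneys were within 1 CPM of each other, and the log2 fold change of 0.29 (SE 0.13) was 0.18 without that library. By reads over library size alone the groups overlapped, with 714 of 14709523 reads in NT replicate 1 and 668 of 14811360 in shFos replicate 3. *Pecam1* (chr11:106654217-106750628) was at 85.5, 95.0, 94.3 and 69.1 CPM in NT kidneys and at 116.6, 115.4, 92.5 and 101.4 CPM in shFos kidneys. shFos replicate 3 fell within the NT range, and the log2 fold change was 0.31 (SE 0.12).

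The 3 capillary markers did not move together. *Ehd3* (chr17:73804134-73832094) was at 41.5, 35.5, 41.3 and 31.1 CPM in NT kidneys and at 43.5, 63.7, 62.0 and 61.9 CPM in shFos kidneys, a log2 fold change of 0.63 (SE 0.15). Replicate 1 stood just above the NT range and the other shFos kidneys within 2 CPM of each other, and without replicate 1 the log2 fold change was 0.71. *Emcn* (chr3:137341067-137432185) was at 96.9, 95.7, 98.4 and 89.0 CPM in NT kidneys and at 141.1, 119.8, 98.1 and 110.3 CPM in shFos kidneys. Here shFos replicate 1 was the highest library and replicate 3 lay inside the NT range, with a log2 fold change of 0.31 (SE 0.11) that was 0.17 without replicate 1. *Plvap* (chr8:71497765-71511752) was at 260.3, 317, 254.6 and 251.5 CPM in NT kidneys and at 318.5, 244.6, 175.9 and 209.9 CPM in shFos kidneys. The highest library of each group, NT replicate 2 and shFos replicate 1, were nearly level, the other 3 shFos kidneys lay below all NT kidneys, and the log2 fold change was -0.19 (SE 0.18), or -0.40 without shFos replicate 1.

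Values of kidney genes also moved with base composition: the median log2 fold change of all genes was 0.18 among the 3700 genes with the lowest GC content and -0.19 among the 3700 with the highest. *Emcn* had the lowest GC content of the 10 (41.5%) and *Plvap* the highest (60.6%). With a GC trend removed per library, *Emcn* had a log2 fold change of 0.14 in place of 0.31 and *Plvap* of 0.06 in place of -0.19, and 9 of the 10 markers were then higher in the shFos group.

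The hyaluronan receptors were low in the kidney and had the largest standard errors of the 10. *Stab2* (chr10:86841198-87008025) was at 8.01, 6.40, 7.75 and 2.96 CPM in NT kidneys and at 4.88, 13.0, 24.6 and 13.0 CPM in shFos kidneys, from 46 to 344 reads. Replicate 1 of the shFos group lay within the NT range, the others above it, and the log2 fold change of 1.14 (SE 0.46) was 0.71 without shFos replicate 3 and 1.38 without shFos replicate 1. *Lyve1* (chr7:110850607-110863239) was at 4.60, 2.96, 4.56 and 7.92 CPM in NT kidneys and at 1.73, 5.18, 1.72 and 0.921 CPM in shFos kidneys, from 12 to 123 reads. Replicate 2 of the shFos group lay within the NT range, and the log2 fold change of -1.06 (SE 0.51) was -1.77 without it. Without NT replicate 4, the library with the highest value, it was -0.75.

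The 77 further endothelial genes were tested in the same fit. In the kidney 72 passed the filter on low counts, 39 were higher and 33 lower in the shFos group, and their median log2 fold change was 0.02 against 0.00 for all genes. None passed edgeR's test, where 12 higher and 9 lower had an unadjusted p under 0.05, and DESeq2 called 7 higher and 5 lower, shares close to the 9.78% and 7.20% of all genes. Without overlap, shFos was above NT for 5 genes and below for 3, beside 9.16% and 8.04% of all genes. About as many of these genes were higher as lower, and the lists differed among themselves.

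All 6 glomerular genes had a log2 fold change above 0 in the kidney, with a median of 0.58. However, *Pi16* (0.01, SE 0.19) and *Tbx3* (0.16, SE 0.33) did not differ beyond their standard errors. Of the 6, 2 had an unadjusted p under 0.05 in edgeR, as had 4762 of all 14892 genes, and DESeq2 called 1. *Plat* lay at 54.1 to 73.0 CPM in NT kidneys and at 86.4 to 108.3 CPM in shFos kidneys, with a log2 fold change of 0.64 (SE 0.11), an edgeR adjusted p of 0.065 and a DESeq2 adjusted p of 0.000288. *Nostrin* had a log2 fold change of 0.52 (SE 0.22, edgeR adjusted p = 0.145). Of the angiopoietin and Tie system, *Angpt1*, the agonist of *Tek*, had a log2 fold change of 0.93 (SE 0.25, DESeq2 adjusted p = 0.00918) and *Ptprb*, a phosphatase that acts on *Tek*, one of 0.35 (SE 0.09, DESeq2 adjusted p = 0.00883). *Tie1*, its co-receptor, had -0.06 (SE 0.10) and *Angpt2*, a context-dependent antagonist, 0.10 (SE 0.25).

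Of 8 ligands and receptors of the VEGF system, 4 were higher and 4 lower in the shFos kidneys, with a median log2 fold change of -0.10. *Nrp2*, a co-receptor, lay at 22.8 to 33.9 CPM in NT kidneys and at 37.1 to 43.3 CPM in shFos kidneys, with a log2 fold change of 0.43 (SE 0.13, DESeq2 adjusted p = 0.0247). The ligands *Vegfd* (-0.50, SE 0.15, DESeq2 adjusted p = 0.0329) and *Vegfb* (-0.29, SE 0.10, DESeq2 adjusted p = 0.0482) were lower by DESeq2, and *Vegfa*, the ligand of *Kdr* and *Flt1*, had a log2 fold change of -0.42 (SE 0.16) with adjusted p-values of 0.105 by edgeR and 0.0663 by DESeq2. The others were called by neither tool: *Vegfc* at 0.35 (SE 0.24) and its receptor *Flt4* at 0.09 (SE 0.14), the co-receptor *Nrp1* at 0.31 (SE 0.14) and the ligand *Pgf* at -0.34 (SE 0.42).

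The 22 genes of general endothelial identity were 12 higher and 10 lower, with a median log2 fold change of 0.00. *Sox17*, an arterial transcription factor, lay at 20.0 to 27.2 CPM in NT kidneys and at 9.86 to 19.0 CPM in shFos kidneys, with a log2 fold change of -0.80 (SE 0.19, DESeq2 adjusted p = 0.00568). *Egfl7*, a secreted endothelial factor (-0.71, SE 0.21), and *Fli1*, an ETS transcription factor (-0.47, SE 0.11), were also below NT without overlap and called lower by DESeq2, while *Adgrl4*, an adhesion receptor (0.59, SE 0.14), was above NT without overlap and called higher.

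Of the other lists, 9 sinusoidal genes could be tested in the kidney, with 4 higher and 5 lower. Coagulation factor *F8* was called higher by DESeq2 (0.87, SE 0.23, adjusted p = 0.00716), and *Stab1*, the paralog of *Stab2*, had a log2 fold change of -0.40 (SE 0.20, edgeR adjusted p = 0.202), which was -0.61 without shFos replicate 1 and -0.23 with the GC offset. The 11 Notch and arteriovenous genes were 4 higher and 7 lower with no call by either tool, *Jag1* (a Notch ligand) at -0.40 (SE 0.15), or -0.60 without shFos replicate 1, and *Notch4* at -0.31 (SE 0.14), or -0.04 with the GC offset. Of 12 activation and anticoagulation genes, 6 were higher and 6 lower. *Sele* (E-selectin) was called higher by DESeq2 (1.11, SE 0.28, adjusted p = 0.0148) at 0.716 to 1.35 CPM in NT and 2.06 to 3.06 CPM in shFos kidneys, and *Tfpi*, a coagulation inhibitor, had 0.57 (SE 0.21, edgeR adjusted p = 0.102), or 0.35 with the GC offset.

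**Figure D4:**
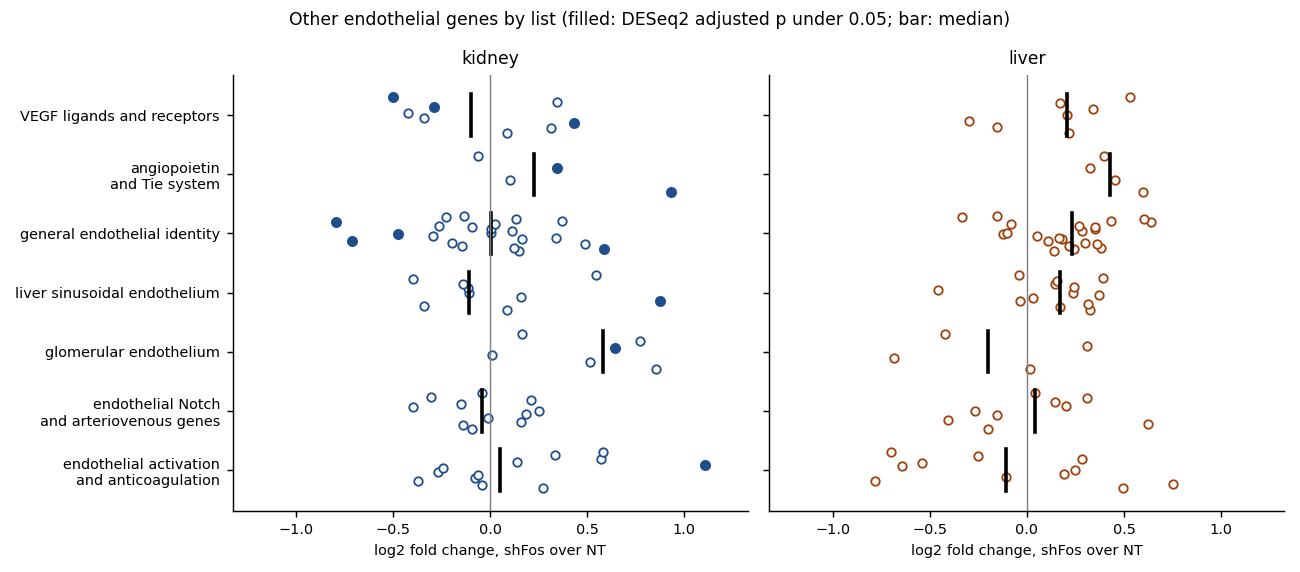
Log2 fold change of shFos over NT for the genes of 7 further endothelial lists, in the kidney (72 genes tested) and the liver (70 genes tested). Each point is a gene, filled points passed DESeq2 at an adjusted p of 0.05, and the black bar is the list's median. The glomerular list lies at or to the right of 0 in the kidney (median 0.58), the identity list is centred on 0 there (0.00) and lies mostly to the right in the liver (0.23), and no liver point is filled.

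Markers of other kidney cells moved with these results. The 3 podocyte markers were all higher in shFos kidneys and all called by DESeq2, among them *Nphs1* (nephrin) with a log2 fold change of 0.94 (SE 0.21) and *Synpo* (synaptopodin) with 0.82 (SE 0.21). Their sum was 116.4, 101.4, 89.1 and 85.65 CPM in NT kidneys and 107, 206.5, 196.4 and 193.1 CPM in shFos kidneys, so that shFos replicate 1, the shFos kidney with the lowest *Ehd3*, was also the only one within the NT range of the podocyte sum. The sum of the 6 further glomerular endothelial genes did not follow this pattern. It was 146.5 CPM in shFos replicate 1 and 141.2, 139.7 and 118.9 CPM in shFos replicates 2, 3 and 4. All 5 proximal tubule markers were higher as well, with 1 DESeq2 call, and summed to 3559 to 7041 CPM in NT and 6757 to 9423 CPM in shFos kidneys. The part of glomerular or tubular content in the values of *Ehd3*, *Kdr*, *Stab2* and *Plat* was not tested. Without shFos replicate 1, edgeR called *Ehd3*, *Kdr* and *Stab2* higher, but it then called 4173 genes in all and 18 of the further endothelial genes, 8 higher and 10 lower.

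**Figure D5:**
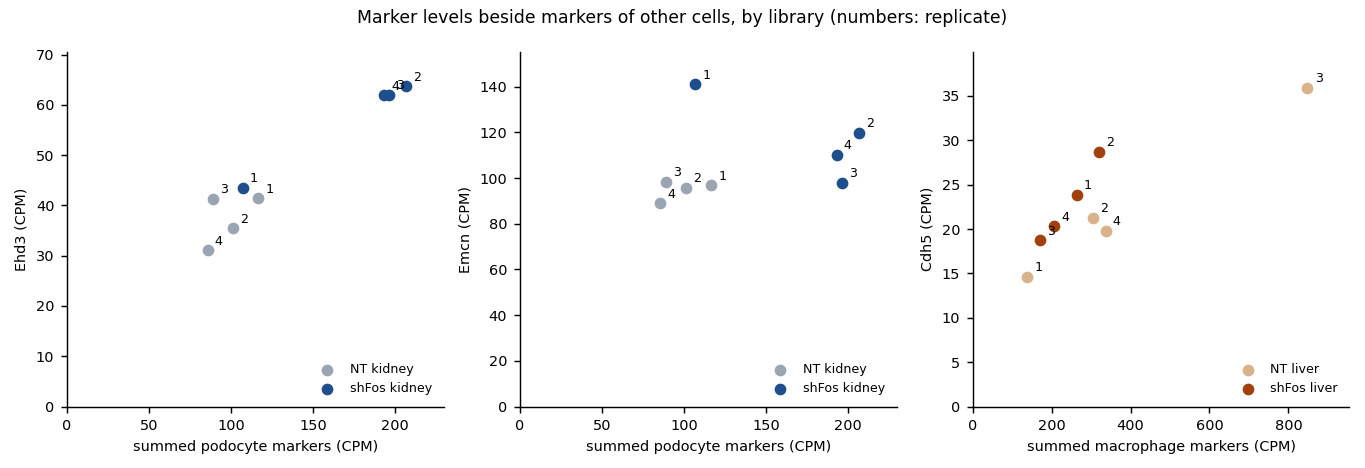
Levels of *Ehd3* and *Emcn* in kidneys against the sum of 3 podocyte markers, and of *Cdh5* in livers against the sum of 6 macrophage markers, in CPM on linear axes; each point is a library and the number is its replicate. shFos kidneys 2 to 4 sit at podocyte sums of 193.1 to 206.5 CPM with *Ehd3* at 61.9 to 63.7 CPM, shFos replicate 1 (107 CPM) sits near the NT kidneys for *Ehd3* but has the highest *Emcn*, and liver NT replicate 3 is highest for both *Cdh5* (35.9 CPM) and the macrophage sum (848.4 CPM).

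In the liver, 6 of the 10 markers were higher in the shFos group and 4 were lower, with a median log2 fold change of 0.26 against -0.01 for all 13144 genes tested. Only *Kdr* had all shFos libraries above all NT libraries, which held for 2.79% of all genes, and none lay below, which held for 1.52%. No marker was called by edgeR (0% of all genes) or by DESeq2 (0.219% of all genes), and 1 marker and 897 genes had an unadjusted p under 0.05 in edgeR.

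*Kdr* was at 23.7, 25.9, 24.6 and 23.1 CPM in NT livers 1 to 4 and at 37.5, 33.6, 31.9 and 27.7 CPM in shFos livers 1 to 4. The NT livers were within 3 CPM of each other and all shFos livers were above them, with a log2 fold change of 0.43 (SE 0.11) that ran from 0.35 to 0.50 over all alternatives. *Flt1* was at 6.86, 7.67, 8.79 and 12.4 CPM in NT livers and at 11.7, 11.2, 12.1 and 9.21 CPM in shFos livers, where NT replicate 4 was the highest of all 8, and the log2 fold change of 0.31 (SE 0.20) was 0.49 without it and 0.19 without NT replicate 1. *Tek* was at 5.34, 5.30, 6.66 and 8.83 CPM in NT livers and at 8.86, 8.55, 7.86 and 5.68 CPM in shFos livers, with overlapping groups and a fitted log2 fold change of 0.24 (SE 0.22) that was 0.41 without NT replicate 4 and 0.15 without NT replicate 2.

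*Cdh5* was at 14.6, 21.3, 35.9 and 19.8 CPM in NT livers and at 23.9, 28.7, 18.8 and 20.3 CPM in shFos livers, a log2 fold change of 0.00 (SE 0.26). NT replicate 3 was the highest and NT replicate 1 the lowest, and the value was 0.30 without the former and -0.18 without the latter. *Pecam1* was at 12.5, 16.5, 21.2 and 18.7 CPM in NT livers and at 17.9, 17.7, 18.5 and 13.9 CPM in shFos livers, and the log2 fold change was -0.02 (SE 0.17). Both junction genes were highest in NT replicate 3 and lowest in NT replicate 1. The sum of 6 macrophage markers followed the same extremes, at 138.4, 305.2, 848.4 and 336.9 CPM in NT livers against 263.2, 318.7, 170.4 and 206.3 CPM in shFos livers, and its part in these values was not tested.

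*Ehd3* was at 57.5, 35.9, 58.3 and 35.3 CPM in NT livers and at 65.7, 62.4, 57.0 and 57.5 CPM in shFos livers. The NT livers fell into a higher and a lower pair, the higher pair overlapped the shFos group, and the log2 fold change was 0.38 (SE 0.18), or 0.25 without NT replicate 4. *Emcn*, with 32 to 56 reads per liver, was at 2.51, 1.85, 1.72 and 2.49 CPM in NT livers and at 3.14, 2.55, 3.17 and 2.03 CPM in shFos livers, a log2 fold change of 0.35 (SE 0.24). *Plvap* was at 63.5, 62.7, 84.5 and 60.5 CPM in NT livers and at 75.0, 89.5, 82.3 and 82.9 CPM in shFos livers. NT replicate 3 stood alone above its group and within the shFos range, and the log2 fold change of 0.28 (SE 0.13) was 0.41 without it.

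*Stab2* was at 36.4, 43.5, 43.5 and 46.5 CPM in NT livers and at 41.8, 41.6, 30.7 and 30.6 CPM in shFos livers. The shFos livers formed 2 pairs, the lower of which was below all NT livers, and the log2 fold change was -0.23 (SE 0.14). *Lyve1* was at 3.82, 5.13, 7.65 and 11.1 CPM in NT livers and at 3.59, 4.83, 8.39 and 6.04 CPM in shFos livers, with groups that overlapped over nearly the whole range and a log2 fold change of -0.28 (SE 0.36) that became 0.02 without NT replicate 4 and -0.53 without shFos replicate 3.

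Of the 77 further endothelial genes, 70 could be tested in the liver, 48 were higher and 22 lower in the shFos group, and their median log2 fold change was 0.19 against -0.01 for all genes. None passed edgeR's test or DESeq2's, and 7, all higher, had an unadjusted p under 0.05 in edgeR. All shFos livers were above all NT livers for 4 of them (*Robo4*, *Dll4*, *Tfpi* and *Cav1*) and below for none, beside 2.79% and 1.52% of all genes. Of the 22 genes of general identity 17 were higher (median 0.23), among them *Sox17* (0.64, SE 0.25, edgeR adjusted p = 0.707) and *Mmrn2*, a matrix protein that binds VEGF (0.35, SE 0.15, edgeR adjusted p = 0.721). All 4 genes of the angiopoietin and Tie system were higher, with *Tie1* at 0.40 (SE 0.18) and *Ptprb* at 0.32 (SE 0.14), and so were 5 of 7 VEGF genes, with *Vegfd* at 0.53 (SE 0.28), or 0.29 without shFos replicate 3, and *Vegfa* at 0.21 (SE 0.14), or 0.13 without NT replicate 2.

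The 13 sinusoidal genes were 10 higher and 3 lower in the liver, with *Bmp2*, a ligand that sinusoidal endothelium sends to hepatocytes, at 0.32 (SE 0.14) and *Gpr182*, a chemokine-binding receptor, at 0.24 (SE 0.11). The 4 glomerular genes tested there were 2 higher and 2 lower, with *Tbx3* at -0.42 (SE 0.28), or -0.19 without NT replicate 2, and *Pi16* at -0.69 (SE 0.48), which ran from -1.21 without shFos replicate 1 to -0.32 without NT replicate 4. Of 9 Notch and arteriovenous genes 5 were higher, led by *Dll4*, a Notch ligand, at 1.82 to 2.77 CPM in NT livers and 2.86 to 4.58 CPM in shFos livers (log2 fold change 0.62, SE 0.22, edgeR adjusted p = 0.702), with *Notch4* at 0.31 (SE 0.19), or 0.17 without shFos replicate 3. Of 11 activation and anticoagulation genes 5 were higher and 6 lower. *Cav1* (caveolin-1) lay at 2.34 to 3.49 CPM in NT and 3.77 to 4.93 CPM in shFos livers (log2 fold change 0.75, SE 0.20, edgeR adjusted p = 0.702), and *Selp* (P-selectin) had -0.54 (SE 0.24).

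In the same livers, markers of several other cell types had fold changes of 1 sign within their list. All 5 pericyte and stellate cell markers that could be tested were higher in shFos livers (median log2 fold change 0.56), as were all 3 smooth muscle markers (median 1.22). All 6 macrophage markers were lower (median -0.72), but 0 of them had an unadjusted p under 0.05. The sum of these markers in shFos livers, 170.4 to 318.7 CPM, lay inside the NT range of 138.4 to 848.4 CPM. All 3 platelet markers tested were lower (median -2.09), of which *Pf4*, platelet factor 4, was called lower by DESeq2 (-2.86, SE 0.61, adjusted p = 0.00338). edgeR called none of these genes, and 7 of them had an unadjusted p under 0.05, beside 897 of all 13144 genes. The hepatocyte list (4 higher, 1 lower) and the lymphocyte list (1 higher, 4 lower) were of mixed sign. Of the hepatocyte markers, *Ttr* (0.87, SE 0.34) and *Cps1* (0.61, SE 0.23) lay above NT without overlap, as did 2.79% of all genes, and *Cyp2e1* had -0.33 (SE 0.25). The part of any of these cells in the endothelial values was not tested.

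Whether the shFos effect differed between the tissues was tested as the interaction of tissue and treatment over all 16 libraries (15421 genes). edgeR called no gene (0%), with 2478 genes and 1 of the markers at an unadjusted p under 0.05, and DESeq2 called 2.26% of genes and no marker. The marker with the largest difference was *Stab2*, whose liver effect minus kidney effect was -1.35 on the log2 scale (SE 0.49), with kidney and liver log2 fold changes of 1.14 and -0.23. *Lyve1* differed by 0.79 and *Plvap* by 0.48, the latter lower in shFos kidneys and higher in shFos livers. For *Flt1* and *Emcn* the 2 tissues differed by 0.06 each and for *Tek* by -0.10. Of the 77 further genes, edgeR called none, with 9 at an unadjusted p under 0.05 toward the liver and 1 toward the kidney, and DESeq2 called *Sox17*, whose difference was 1.44 (DESeq2 adjusted p = 0.00947, edgeR adjusted p = 0.18).

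The markers did not vary as a block between libraries of the same group. After subtraction of group means from log2 CPM, over 8 kidneys, *Kdr* and *Ehd3* had a Pearson r of 0.80 (Spearman rho 0.95, and r 0.76 without the 2 libraries farthest from the median), and *Pecam1* and *Cdh5* one of 0.90 (rho 0.64), which was 0.62 without the 2 farthest libraries. *Emcn* and *Plvap* had r of 0.90 (rho 0.76), which was 0.45 without the 2 farthest libraries, and *Ehd3* and *Stab2* had r of 0.89 (rho 0.81), which was 0.26 without them. *Ehd3* and *Plvap* had a negative r of -0.62, or -0.53 without the 2 farthest libraries, but a rho of only -0.19. Over 8 livers, *Flt1* and *Tek* had r of 0.92 (rho 0.79, and 0.91 without the 2 farthest), whereas *Kdr* and *Ehd3* had 0.14. Each of these points is a whole-tissue library with its own cell composition and scaling, and 45 pairs were computed in each tissue.

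By the same measure, the genes outside the lists whose pattern was most like *Cdh5*, among genes with a mean of at least 1 CPM, were *Nynrin* (r 0.990), *Rhob* (0.986), *Lgals12* (0.982), *Prkaca* (0.978) and *Pmp22* (0.977) in 8 kidneys, out of 14342 genes compared. In 8 livers they were *Epb41l3* (r 0.995), *Bin2* (0.994), *Nfam1* (0.989), *Pilrb2* (0.988) and *Cd300a* (0.987), out of 12429, and no gene was in both sets. Spearman rho ran from 0.881 (*Rhob*) to 0.976 (*Nynrin*) in kidneys and from 0.976 to 1 in livers. These are the highest of many values over 8 libraries, and r without the farthest libraries was not computed for them. *Cdh5* in kidney NT replicate 4, at 32.59 CPM, was far below the 45.95 to 46.9 CPM of its group.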

How the data were processed

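Kidney and liver RNA of aged mice was measured by RNA-seq in 16 libraries, 4 for each tissue and treatment. Per the labels, reads were trimmed with Trimmomatic 0.39, aligned to mm10 with HISAT2 2.2.1 and counted per gene with HTSeq 0.12.4; the methods state that strand was not used. The deposited files hold raw counts for 24984 gene symbols, 98.2% of which were found in GENCODE M21, and 5 summary lines that were left out of library sizes. Reads on no gene made up 13.4% to 26.7%. Because strand was ignored and ambiguous reads were dropped, values of overlapping or antisense genes and of close paralogs are uncertain.

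The 10 markers and the further gene lists were chosen with earlier results of these data known. Within each tissue, shFos was compared with NT by the quasi-likelihood test of edgeR 4.0.16 under R 4.3.3, after filterByExpr, TMM normalization and robust dispersion estimates. P-values were adjusted over all genes by Benjamini-Hochberg, and 0.05 was the threshold. The tissue difference (also over 2-fold) and the interaction came from 1 fit of all 16 libraries. Levels are TMM CPM. The pipeline was tested on simulated data. DESeq2 1.42.0 and other normalizations, filters, dispersions, GC offsets (lowess span 0.3), a replicate block and left-out libraries were alternatives. Genes named are the 10 markers, *Fos*, the 2 genes of each further list with the smallest p in each tissue, and the 5 genes most like *Cdh5*; other genes named were chosen after their values were seen. One gene of the podocyte list is not reported here. Likeness used log2(CPM + 0.5). Plots were drawn with matplotlib 3.10.9.

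Same-numbered libraries deviated together between NT kidneys and NT livers (correlations 0.155 to 0.353 in 4 of 4 pairs), as taken from the data and not from the labels.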

Additional observations from a re-analysis of the deposited data

Results flagged for a closer look

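The values of each marker were examined in each group of 4 libraries for a single library far from the other 3 by Dixon's test at the 95% level. Of 40 groups, 4 held such a library, where chance gives about 2. *Cdh5* in kidney NT replicate 4 was at 32.59 CPM, below the 45.95 to 46.9 CPM of the other NT kidneys. *Ehd3* in kidney shFos replicate 1 was at 43.54 CPM, below the 61.92 to 63.67 CPM of the other shFos kidneys. *Plvap* was above its group in kidney NT replicate 2, at 317 CPM against 251.5 to 260.3 CPM, and in liver NT replicate 3, at 84.47 CPM against 60.45 to 63.54 CPM.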

How the results depend on the processing

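Of 340 marker log2 fold changes recomputed under alternatives, 338 moved by under 1 SD between replicates. The 2 others were both in the kidney: *Emcn* with the GC offset (0.14) and *Lyve1* without shFos replicate 2 (-1.77). A move of under 1 SD could still change the sign of a small value. The sign turned in 6 of 17 alternatives for *Cdh5* in the liver and in 3 for *Pecam1* in the liver. It turned in 1 for *Lyve1* in the liver and in 1 for *Plvap* in the kidney. The number of genes called in the kidney depended on the test and on single libraries: 0 in the fit as reported, 2582 with DESeq2, 987 with all 16 libraries in 1 fit, and from 0 to 4173 with each library left out, the extremes above 0 being 3 (NT replicate 4 left out) and 4173 (shFos replicate 1 left out). The further endothelial genes called in the kidney followed (12 with DESeq2, 5 with all 16 libraries, 0 to 18 with a library left out), as did the markers (*Ehd3* and *Kdr* with all 16 libraries). In the liver DESeq2 called 28 genes and no alternative called a marker or a further endothelial gene. DESeq2 called 281 genes and 1 further endothelial gene for the interaction, and with each replicate number left out edgeR called from 0 to 448 and from 0 to 3, the highest without replicate 1, where it also called *Stab2*. Between NT kidneys and NT livers 6223 genes were called, 9384 with library size alone and 9982 with the adjusted p alone. *Plvap* missed the 2-fold rule with the GC offset and without replicate 1, 2 or 4, *Lyve1* missed the calls without replicate 3, and with library size alone *Kdr* passed while *Ehd3* and *Lyve1* did not. The cause of these differences was not tested.

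The replicate block moved no count of calls by over 1.5 times: with it, edgeR called 0 genes in the kidney, 0 in the liver and 0 for the interaction, and 6274 genes with the same 8 markers between the tissues. Same-numbered NT and shFos libraries did not deviate together, with correlations from -0.154 to 0.095 in the kidney and from -0.277 to 0.022 in the liver and none over 0.1. Between shFos kidneys and shFos livers they were 0.031 to 0.153, and 3 of 4 libraries correlated best with their own number. *Lyve1* and *Stab2* in the kidney and *Emcn* in the liver had the fewest reads.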
